A study of Mus musculus with 95 samples.

Results

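Heat shock genes code for chaperones, proteins that bind unfolded chains and help them fold, and 9 of them were followed here in pancreatic islets, 9 of the 20638 genes in the count table. They were taken by gene symbol. Hspa1a and Hspa1b encode the stress-inducible Hsp70, Hspa8 the constitutive Hsc70, Dnajb1 an Hsp40 co-chaperone, Hsph1 the Hsp110 nucleotide exchange factor, and Hspb1 the small heat shock protein known in mouse as Hsp25. Hspd1 and Hspe1 encode the mitochondrial chaperonin Hsp60 and its lid Hsp10. Gm15459 is annotated as a processed pseudogene, and its sequence is a near copy of the Hspa8 coding sequence.

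In textbook accounts, misfolded protein in the cytosol releases the transcription factor HSF1 from chaperones, and HSF1 then binds heat shock elements, repeats of the unit GAA in alternating orientation, upstream of its target genes. Hsp40 proteins deliver clients to Hsp70 and start its ATP cycle, Hsp110 ends that cycle by nucleotide exchange, and small heat shock proteins hold unfolded chains without ATP. Hsp60 and Hsp10 form a closed chamber in which imported mitochondrial proteins fold. Islets are rich in beta cells, which make large amounts of insulin in the endoplasmic reticulum, a compartment with chaperones of its own.

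The study measured messenger RNA of islets from mice of the Diversity Outbred (DO) founder strains on a high-fat, high-sugar diet, labelled as 45% fat for every library. The labels of the 95 libraries, numbered between 1 and 100, give neither strain, sex nor age for a single library, so all were left unassigned, and no groups were compared. Library totals ran from 16411809 to 34357253 counts with a median of 26552738. The tissue label was checked against 8 islet hormone genes, which held 6.82% to 26.6% of the counts of a library (median 19.7%), while 18 acinar genes, markers of the exocrine pancreas around the islets, held 0.239% to 38.4% (median 6.23%).

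All 9 genes passed a filter on low counts that kept 15839 genes. Where they lie, on the mouse build GRCm38 and as the authors' table gives it, is as follows. Hspa1a (chr17:34969190-34972156) and Hspa1b (chr17:34956436-34959238) are single-exon genes on the minus strand, 9951 bases apart. Hspb1 (chr5:135887919-135889563, plus strand) has 3 exons, Dnajb1 (chr8:83608175-83611902, plus strand) has 3, and Hsph1 (chr5:149614287-149636376, minus strand) has 18. Hspa8 (chr9:40800984-40805200, plus strand) has 9 exons, and Gm15459 (chr5:5781615-5783555, minus strand) has 1. Hspd1 (chr1:55077835-55088243, minus strand, 12 exons) and Hspe1 (chr1:55088132-55091307, plus strand, 4 exons) stand head to head and overlap by 112 bases. Exon numbers are those of 1 GENCODE M21 transcript per gene, the one with the most coding segments, and that release gives other ends for Dnajb1 and Hspa8.

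The sequences that matter most are those that separate the copies, since reads from identical stretches cannot be assigned by sequence. The coding sequence of Hspa8 and the Gm15459 transcript are both 1941 bases long and differ at 5 bases, which makes them 99.74% identical. Counting from the A of the start codon, with the Hspa8 base first and the Gm15459 base last, the differences are G114A, C414T, C549T, G1222A and C1440T. The lines that follow show Hspa8 around each, with the differing base in capitals.
Hspa8, 94 to 134: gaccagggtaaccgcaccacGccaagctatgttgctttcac
Hspa8, 394 to 434: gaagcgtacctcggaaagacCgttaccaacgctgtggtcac
Hspa8, 529 to 569: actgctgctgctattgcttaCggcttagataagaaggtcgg
Hspa8, 1202 to 1242: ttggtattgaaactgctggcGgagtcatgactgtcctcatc
Hspa8, 1420 to 1460: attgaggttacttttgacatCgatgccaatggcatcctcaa

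Of all 31-base words of the Gm15459 transcript, 91.9% also occur in Hspa8, and 38.6% of the Hspa8 words occur in Gm15459. The coding sequences of Hspa1a (1926 bases) and Hspa1b (1929 bases) differ at 8 bases and by a gap of 3, so that they are 99.43% identical, and 63.8% of the Hspa1a words and 67.6% of the Hspa1b words are found in the other gene. By contrast, the Hspa1a and Hspa8 coding sequences, 2 members of the same protein family, are 73.93% identical. Copies outside the 9 genes also share words: 52.3% of Hspb1 words occur in Hsp25-ps1, 46.5% of Hspd1 words in Hspd1-ps3 and 23.1% of Hspe1 words in AC117239.2. Hsph1 shares 0 words with any other gene and Dnajb1 0.412%.

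Promoters were searched for heat shock elements because the genes move together in part. In the 250 bases before each annotated start (RefSeq, GRCm38.p6), 7 of the 9 genes have an entry, while Hspa8 and Gm15459 have none in the table used. A pair of facing units, written GAANNTTC or TTCNNGAA and searched on both strands, was found in 12.8% of 32851 mouse promoters. A run of 3 units, the same pair followed by 1 more unit in alternation and so overlapping the pair, was found in 0.466%. The lines below show the matches in capitals, 5′ to 3′ on the strand of the gene.
Hspa1a (chr17:34972223-34972285, minus strand): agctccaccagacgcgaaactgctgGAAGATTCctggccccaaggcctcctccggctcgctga
Hspa1b (chr17:34959305-34959367, minus strand): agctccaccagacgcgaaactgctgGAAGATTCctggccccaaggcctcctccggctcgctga
Hspb1 (chr5:135887777-135887859, plus strand): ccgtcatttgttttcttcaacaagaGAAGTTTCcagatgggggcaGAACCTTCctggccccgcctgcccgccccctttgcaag
Hsph1 (chr5:149636337-149636394, minus strand): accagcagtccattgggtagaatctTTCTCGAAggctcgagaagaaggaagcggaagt
Hspd1 (chr1:55088029-55088101, minus strand): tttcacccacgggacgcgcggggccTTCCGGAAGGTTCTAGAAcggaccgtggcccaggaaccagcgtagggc
Hspe1 (chr1:55088034-55088106, plus strand): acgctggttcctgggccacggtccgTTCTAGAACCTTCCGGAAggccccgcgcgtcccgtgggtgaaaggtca

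The Hspa1a and Hspa1b windows are letter for letter the same, with the match at position -104 from either start. Over the whole 250 bases these 2 promoters differ at C44T, T47C and T249G, counted from the far end with the Hspa1a base first. Hspb1 has matches at positions -117 and -97, and Hsph1 has 1 at -33 from the first of its starts. The Hspe1 promoter and the second of the 2 annotated Hspd1 starts share 1 site, read on opposite strands, with 3 overlapping pairs and 2 overlapping runs of 3 units, while the first Hspd1 start has 0. The window of the second Hspd1 start (chr1:55087933-55088182) lies inside the gene, which begins at 55088243 on the minus strand. Of the Hspd1 windows, only that of the first start, without a match, lies upstream of the gene. Neither annotated start of Dnajb1 has a match in these 250 bases, which says only that these letters are not in that window. The window of its second start (chr8:83608298-83608547) lies inside the gene, which begins at 83608175, so only the first lies upstream of the gene. Neither Dnajb1 start was found in the GENCODE M21 transcripts of the gene.

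Levels are given as CPM, the count of a gene scaled to 1000000 counts per library after TMM adjustment, and spread is given as the biological coefficient of variation (BCV), the library-to-library variation left after counting noise. The inducible pair varied most among the genes that code for protein. Hspa1a stood at 7.03 CPM in library 84, had a median of 32.05 CPM and reached 262 CPM in library 91, a 37.2-fold range. Hspa1b stood at 3.10 CPM in library 84, had a median of 32.8 CPM and reached 431 CPM in library 91, a 139-fold range. The same libraries held the lowest and the highest level of both genes, and the order of the libraries was close to the same.

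The BCV was 89.2% for Hspa1a and 101% for Hspa1b, and the level at the 90th percentile of libraries was 15.2 and 20.3 times that at the 10th. With Dnajb1 (51.6%) and Gm15459 (205.5%), 4 of the 9 genes exceeded a BCV of 50%, beside 24.3% of the 15839 kept genes. On the log2 scale the 10th to 90th percentile range was 4.34 for Hspa1b, wider than in all but 4.03% of kept genes, and 3.92 for Hspa1a, against a median of 0.92 over kept genes. In the 47 libraries numbered above 50 the range was 4.94 for Hspa1b and 4.16 for Hspa1a, and in the 48 numbered 50 or lower it was 2.81 and 2.25. The spread holds strain, sex and technical differences together, since the labels do not separate them.

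High Hspa1a and Hspa1b were seen in a minority of libraries. Summed, the pair had a median of 62.5 CPM, between 10.1 CPM in library 84 and 692 CPM in library 91. The sum exceeded 100 CPM in 33 libraries and 300 CPM in 12, which were libraries 41, 65, 67, 68, 70, 78, 79, 80, 86, 88, 89 and 91, so that all but library 41 carried numbers from 65 to 91. Libraries with adjacent numbers still differed widely: the sum was 438 CPM in library 78, 387 in library 79 and 393 in library 80, and then 11.3 CPM in library 81. Between libraries 76 and 85 Hspa1b spanned 3.10 to 228 CPM, most of its range in the whole series.

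**Figure D1:**
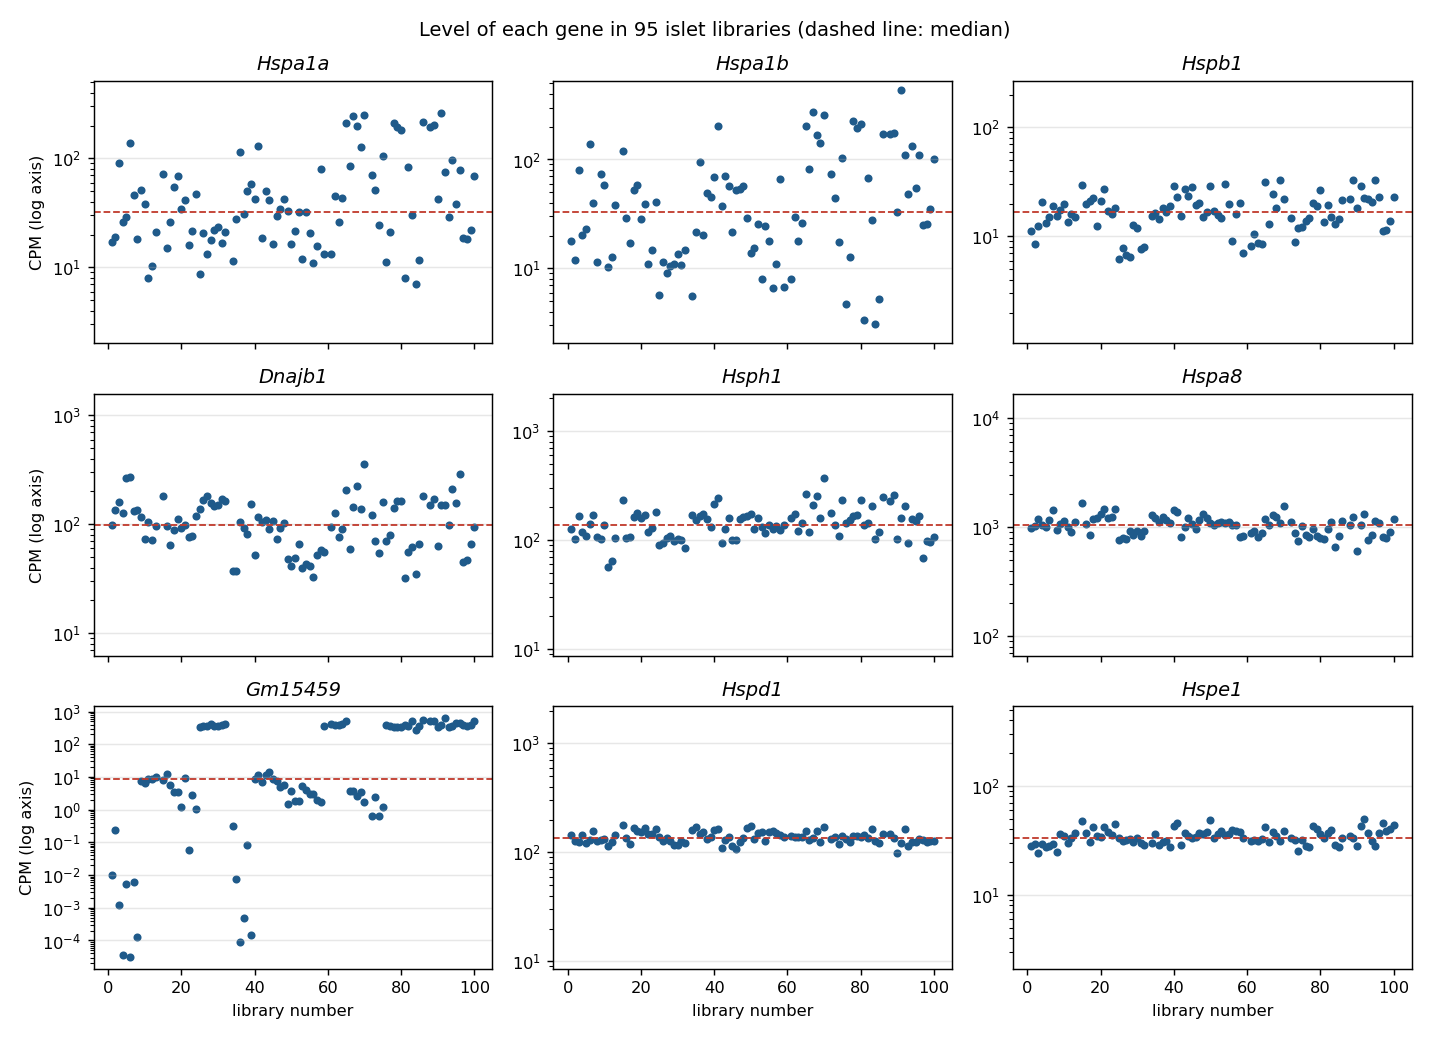
Level of each of the 9 genes in CPM (log axis) against library number, 1 point per library, with the median over 95 libraries as a dashed line. All panels but that of Gm15459 span the same fold range: Hspa1a and Hspa1b scatter over 37.2-fold and 139-fold, Hspd1 stays within 1.81-fold, and Gm15459 falls into separate upper and lower bands.

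The co-chaperones of Hsp70 varied less. Dnajb1, which starts the Hsp70 cycle, stood at 32.4 CPM in library 81, had a median of 98.7 CPM and reached 361 CPM in library 70. The next libraries for Dnajb1 were 96 with 288 CPM, 6 with 272 CPM and 5 with 264 CPM, of which library 5 was not among the 33 with an Hspa1 sum over 100 CPM. Hsph1, the exchange factor, stood at 56.2 CPM in library 11, had a median of 137 CPM and reached 372 CPM in library 70, with a BCV of 32.8%. The libraries next below for Hsph1 were 65, 89 and 68, with 266, 260 and 254.5 CPM, and all of these belonged to the 12 with the highest Hspa1 sum.

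Hspb1, the small heat shock protein, stood at 6.19 CPM in library 25, had a median of 16.7 CPM and reached 33.2 CPM in library 95, with a BCV of 38.5%. Its lowest libraries were 25, 28, 27 and 59, all with less than 7 CPM. Library 91, the highest for the inducible pair, ranked 8th for Hspb1, 25th for Dnajb1, 33rd for Hsph1, 48th for Hspa8 and 83rd for Hspd1. The library that led for 1 chaperone thus did not lead for all of them.

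Hspa8, Hspd1 and Hspe1 were the steady members. Hspa8, which folds new proteins in unstressed cells, stood at 611 CPM in library 90, had a median of 1051 CPM and reached 1661 CPM in library 15, with a BCV of 20.2%. Hspd1 ran from 98.5 CPM in library 90 through a median of 137 CPM to 178 CPM in library 15, with a BCV of 12.5%, lower than in 89% of kept genes. Hspe1 ran from 24.05 CPM in library 3 through a median of 33.5 CPM to 49.3 CPM in library 92, with a BCV of 15.9%. The median BCV over kept genes was 26.1%.

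Hspd1 and Hspe1 proteins work as partners, and their RNA levels were set side by side as a ratio of CPM. The median ratio of Hspd1 to Hspe1 was 4.005, with extremes of 2.81 in library 97 and 5.42 in library 34. On the log2 scale the ratio had an SD of 0.20 over libraries, beside 0.17 for Hspd1 and 0.23 for Hspe1, so the ratio was no steadier than Hspd1 itself. Reads from the 112 overlapping bases can come from either gene, and whether the counting used strand is not given in the sources used here.

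Per kilobase of transcript (RPKM), levels could be ordered between genes. Hspa8 was first with a median of 439 RPKM and stood above Hspd1 (56.4 RPKM) in 95 of 95 libraries. Hspd1 stood above Hspe1 (43.3 RPKM) in 91 libraries, and Hspe1 above Hsph1 (36.2 RPKM) in 69. Below them Hsph1 exceeded Dnajb1 (32.9 RPKM) in 61 libraries, Dnajb1 exceeded Hspb1 (18.4 RPKM) in 80, and Hspb1 exceeded Hspa1b (11.7 RPKM) in 65. Hspa1b exceeded Hspa1a (10.8 RPKM) in 40 libraries only, and apart from Hspa8 the 10th to 90th percentile ranges of all these neighbours overlapped. With the union of all annotated exons as the length, the medians became 18.9 RPKM for Hsph1, 22.75 RPKM for Hspe1 and 30.8 RPKM for Dnajb1, which changes the order of those 3.

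Gm15459 was the one gene whose libraries fell into separate sets, separated by a gap wider than 20% of its log2 range. In 38 libraries, numbered 25 to 32, 59 to 65 and 76 to 100, it had 272 to 619 CPM. In the other 57, numbered 1 to 24, 34 to 58 and 66 to 75, it had 3.16e-05 to 13.8 CPM, and in 13 of these the estimated count was 3 or less. The 2 sets did not overlap, and each took up whole runs of library numbers.

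Expressed as a share of the Hspa8 and Gm15459 counts together, Gm15459 took 26.1% to 34.9% in the 38 libraries (median 30.4%) and at most 1.16% in the 57. Within the 57 the share again followed library number in part. It was 0.472% to 1.16% in libraries 9 to 16, 0.424% to 1.16% in 40 to 48, and at most 0.0225% in 1 to 8 and 0.0249% in 34 to 39. Other stretches overlapped these or lay between them. They had 0.00492% to 0.651% in 17 to 24, 0.127% to 0.464% in 49 to 58 and 0.0553% to 0.368% in 66 to 75. These stretches were read off the values and are not groups in the labels. The Hspa8 level itself differed between the sets, with a median of 864 CPM in the 38 (611 to 1331 CPM) and 1108 CPM in the 57 (751 to 1661 CPM), while the sum of both genes had a median of 1252 CPM in the 38 and 1113 CPM in the 57. Summing Hspa8 and Gm15459 to 1 gene gave a BCV of 18.5%, beside 20.2% for Hspa8 alone.

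The Hspa1a share of the Hspa1a and Hspa1b counts also followed library number, although both genes were detected in every library. The median share was 53.6%, with extremes of 32.8% in library 42 and 70.4% in library 81. Hspa1b held more than 50% of the counts in all of libraries 9 to 16, where the Hspa1a share was 34.3% to 44.7%, in all of 40 to 48 (32.8% to 43.1%) and in all of 91 to 100 (37.7% to 42.2%). Outside these runs the Hspa1a share was never below 46.3%. Libraries 76 to 85 held both ends of that range. The share was 69.4% in library 84 and 70.4% in library 81, with sums of 10.1 and 11.3 CPM for the pair. In libraries 78, 79 and 80 it was 48.0%, 49.6% and 46.3%, with sums of 438, 387 and 393 CPM. Whether the share varied with the level of the pair was not tested. Summed to 1 gene, the pair still had a BCV of 93.9%.

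**Figure D2:**
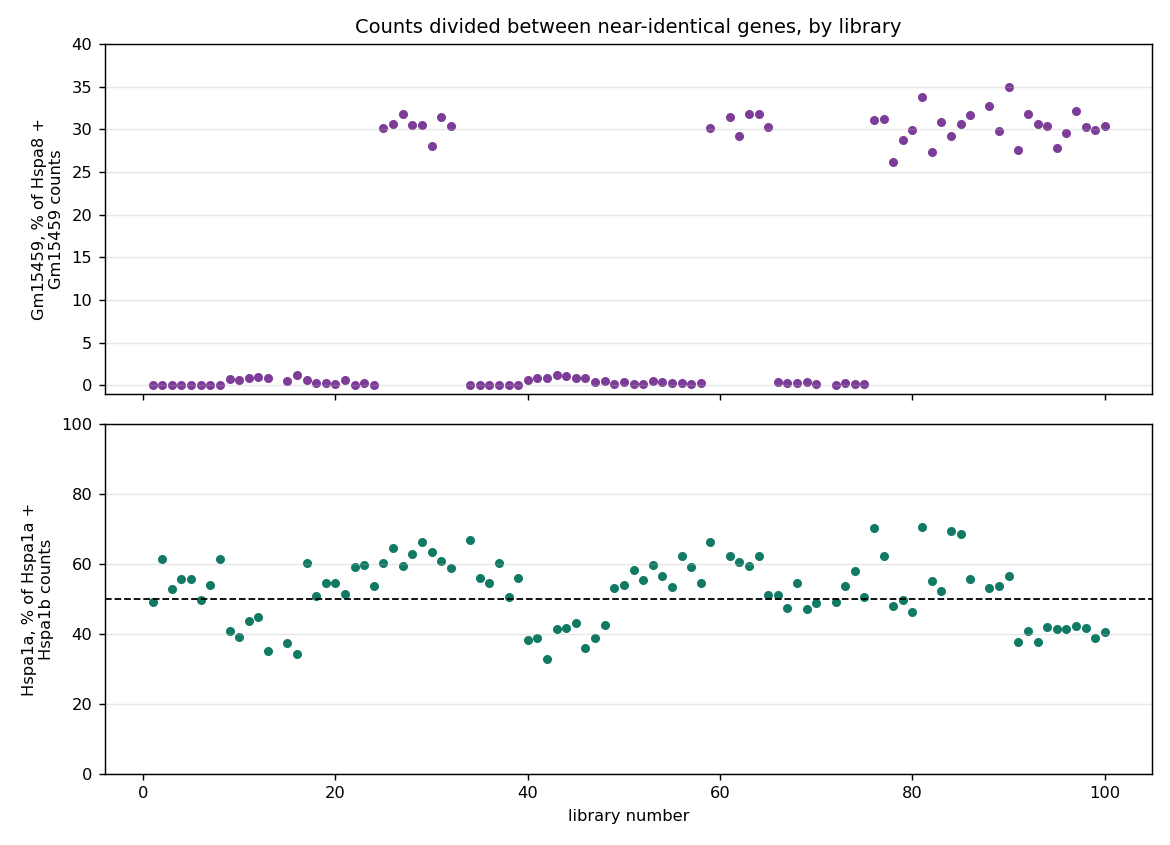
Upper panel, counts of Gm15459 as a percentage of Hspa8 plus Gm15459 counts, and lower panel, counts of Hspa1a as a percentage of Hspa1a plus Hspa1b counts (dashed line at 50%), 1 point per library. Gm15459 lies at 26.1% to 34.9% in 3 runs of library numbers and at or below 1.16% elsewhere, and Hspa1a lies below 50% throughout libraries 9 to 16, 40 to 48 and 91 to 100.

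To ask which heat shock genes rise and fall together, log2 CPM was correlated between genes over the libraries. Gm15459 was kept to its separate sets of libraries, which left 28 pairs over all 95 libraries and 16 values within a set, 44 in all. Of the 28 pairs, 21 passed an adjusted p of 0.05 by both Spearman's rho and Pearson's r (two-sided permutation tests, 100000 resamples, Benjamini-Hochberg over the 44 values), and all 21 were positive. The median rho of the 28 was 0.428, where each member's median rho with all kept genes lay between -0.0169 and 0.0143. Permutation treats libraries as independent, which the labels do not state, and the runs of alike libraries above show that they were not fully so.

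The inducible pair and Hsph1 were the first group. Hspa1a and Hspa1b had a rho of 0.943 (r = 0.949, and 0.944 without the 2 libraries farthest from the Hspa1a median). Of their words, 63.8% and 67.6% occur in the other copy, and the counts are estimates. How much of this value, 1 of the 21 that passed, comes from dividing shared reads was not tested. Hspa1a and Hsph1 had a rho of 0.649 (r = 0.693, adjusted p = 3.38e-05 and 3.14e-05 by permutation). Among all 15838 other kept genes, the one most like Hspa1a was Hspa1b, and Hsph1 came next, followed by Dnaja1 (rho 0.578), an Hsp40 co-chaperone, and then by Hspb1 (0.518) and Dnajb1 (0.498). Only 4 kept genes, 0.0253%, reached a rho of 0.5 with Hspa1a, so 3 of the 4 were members of the set described here and Dnaja1 was the other.

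Hspa1b was also close to Hspb1 (rho 0.605, r = 0.594, adjusted p = 3.38e-05 and 3.14e-05 by permutation). Of kept genes, 15, or 0.0947%, reached a rho of 0.5 with Hspa1b. After Hspa1a, Hspb1 and Hsph1, the nearest were Alkbh2 (0.536), a DNA repair demethylase, and Mob3b (0.532), Spats2 (0.531), Shroom1 (0.523) and Serpinh1 (0.522), a collagen chaperone of the endoplasmic reticulum known as Hsp47. For Hspa1a the corresponding genes after Dnaja1 were Alkbh2 (0.485), Slc25a29 (0.484), Shroom1 (0.47) and Tmem150a (0.46).

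Hsph1, Hspa8 and Hspd1 were a second group of pairs that passed. Hsph1 and Hspd1 had a rho of 0.673 (r = 0.642), Hsph1 and Hspa8 0.623 (r = 0.581), and Hspa8 and Hspd1 0.584 (r = 0.635), each with the smallest p that the resamples can give, 1e-05, before adjustment. Hspd1 and Hspe1 had a rho of 0.492 (r = 0.525, adjusted p = 3.38e-05 and 3.14e-05 by permutation). Hspd1 was not shown to vary with the inducible pair: rho was 0.197 with Hspa1a (adjusted p = 0.0835, permutation) and 0.152 with Hspa1b (adjusted p = 0.191, permutation). Hsph1 thus passed with the inducible pair and with Hspd1, which did not pass with each other. The same held for Hspa8, which had a rho of 0.412 with Hspa1a and 0.421 with Hspa1b. It also held for Hspe1, with lower values of 0.247 with Hspa1a (adjusted p = 0.03, permutation) and 0.361 with Hspa1b.

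The values for Hspa8 depended in part on its pseudogene copy, a check added after the data were seen. With Gm15459 counts added to those of Hspa8, the rho was 0.562 with Hsph1, 0.394 with Hspd1 and 0.265 with Hspb1, where Hspa8 alone had 0.506 with Hspb1, and all 3 still passed. Dnajb1, which did not pass with Hspa8 alone, passed with the sum (0.325, adjusted p = 0.00188, permutation). Within the 38 libraries with the higher Gm15459 level the rho of Hspa8 was 0.584 with Hsph1 and 0.306 with Hspd1, which lost its call there (adjusted p = 0.0834, permutation), and within the 57 with the lower level it was 0.742 and 0.662.

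For Dnajb1 the values depended on which libraries were used. Over all libraries its rho was 0.498 with Hspa1a, 0.476 with Hspa1b and 0.246 with Hsph1 (adjusted p = 0.03, permutation), and it did not pass with Hspb1 (0.125), Hspa8 (0.135), Hspd1 (-0.105) or Hspe1 (-0.148). In the 47 libraries numbered above 50, rho was 0.781 with Hspa1a, 0.795 with Hspa1b, 0.755 with Hsph1 and 0.512 with Hspb1. In the 48 numbered 50 or lower, rho was 0.117 with Hspa1a, -0.0334 with Hspa1b, -0.253 with Hsph1 and -0.48 with Hspb1 (adjusted p = 0.0017, permutation). Those 48 include the run of libraries 25 to 32, with medians of 159 CPM for Dnajb1, 98.8 CPM for Hsph1 and 7.77 CPM for Hspb1. Among the runs of numbers up to 48, these were the highest Dnajb1 median and the lowest Hsph1 and Hspb1 medians. The part of this run in the values was not tested. The difference between the lower and the higher numbers was not tested, and the rho with Hsph1 also lost its call without the libraries numbered above 90 (0.17) and without the 10 libraries of lowest total (0.236).

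Other pairs passed at both the lower and the higher numbers. Hspa1a and Hsph1 had a rho of 0.639 at numbers up to 50 and 0.674 above, Hspa1b and Hspb1 0.495 and 0.668, Hsph1 and Hspd1 0.783 and 0.551, and Hspd1 and Hspe1 0.528 and 0.427. Hspb1 and Hspd1, which did not pass over all libraries (0.196), had 0.383 at numbers up to 50 (adjusted p = 0.018, permutation) and -0.0221 above. Hsph1 and Hspe1 passed over all libraries (0.315) and at numbers up to 50 (0.408), and had 0.109 above 50.

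**Figure D3:**
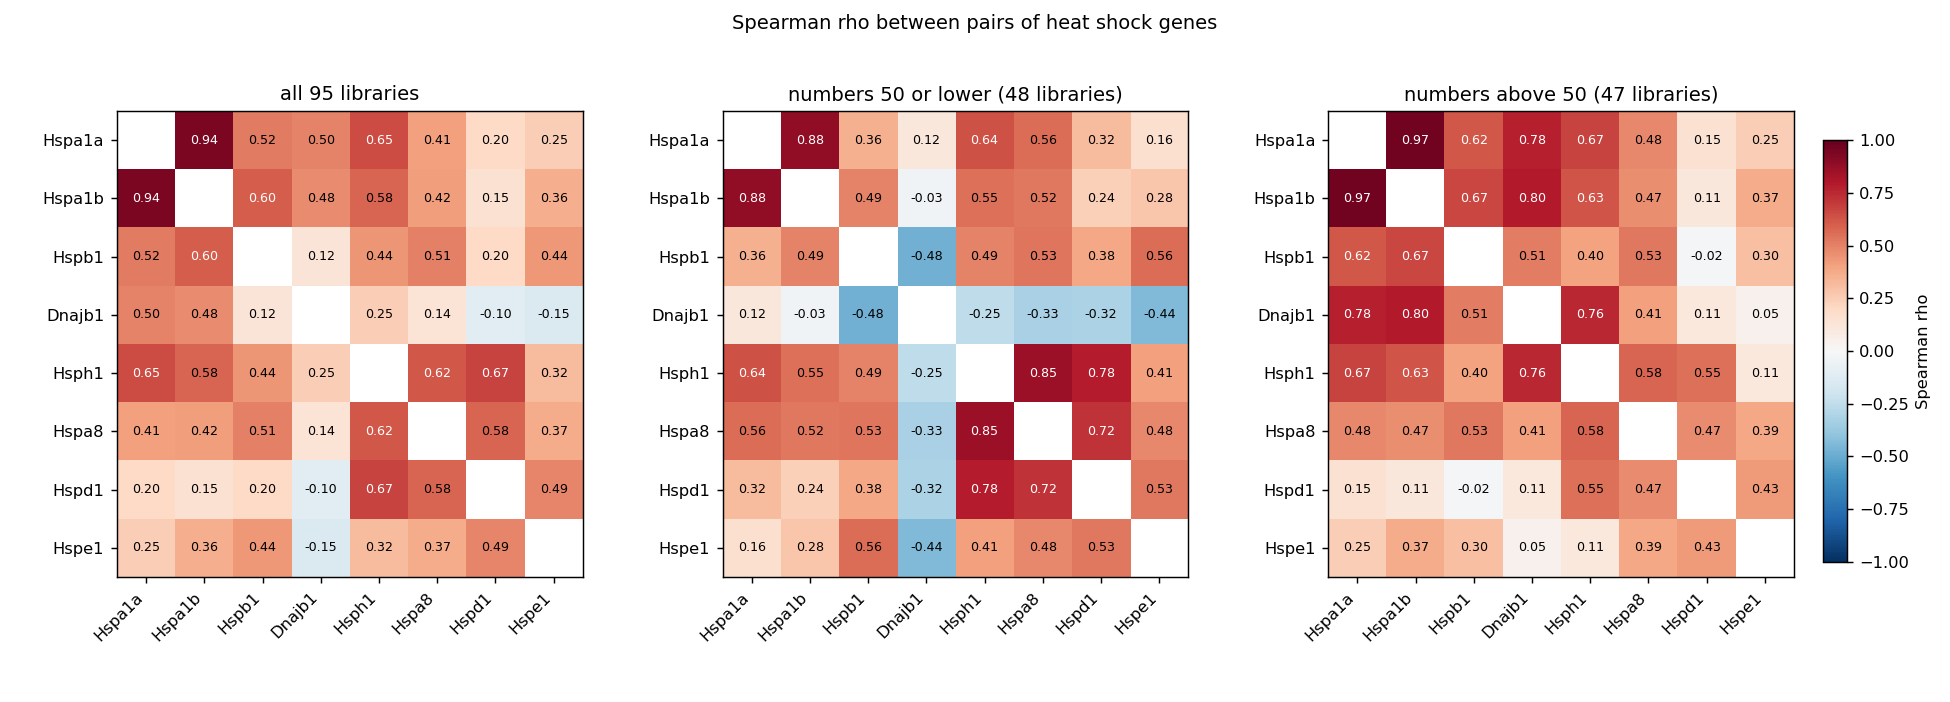
Spearman rho of log2 CPM for each pair of 8 genes over all 95 libraries (left), over the 48 libraries numbered 50 or lower (middle) and over the 47 numbered above 50 (right), from blue at -1 to red at 1. Dnajb1 has a rho of 0.781 with Hspa1a above 50 and 0.117 up to 50, while Hsph1 and Hspd1 have 0.551 and 0.783.

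Gm15459 was compared with the others within its sets only. In the 38 libraries with the higher level it varied with Hspa8 (rho 0.791, r = 0.888, adjusted p = 3.38e-05 and 3.14e-05 by permutation) and with Hsph1 (rho 0.467, r = 0.569). Of the Gm15459 words, 91.9% occur in Hspa8, and in these libraries Gm15459 held 26.1% to 34.9% of their summed counts. How much of the value with Hspa8 comes from dividing shared reads was not tested. In the 57 with the lower level the rho of Gm15459 with Hspa8 was -0.00143 (adjusted p = 0.992, permutation). Its rho with Hspe1 was 0.514 (r = 0.602) and with Hspb1 0.411 (r = 0.369). Those 57 include the stretches of library numbers with unlike Gm15459 shares described above. In the fewer libraries of the 57 numbered above 50, up to 58 and from 66 to 75, the rho was 0.213 with Hspe1 and 0.282 with Hspb1.

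Each gene was then set against 10 measures of the libraries, which gave 100 values with Gm15459 taken within its sets, and 13 passed by rho. The clearest was Dnajb1 with a score of 10 immediate early genes, which code for transcription factors and regulators that switch on within minutes of a stimulus: rho 0.622, r = 0.661, and r = 0.699 without the 2 farthest libraries (adjusted p = 5e-04 for both, permutation). It passed under all 9 alternatives tried, with a rho of 0.595 at numbers up to 50 and 0.657 above. Of the 10 immediate early genes, 7 reached a rho of 0.5 with Dnajb1, beside 0.65% of kept genes, and the list median was 0.534. Among them were Fosb (0.643), Junb (0.64) and Atf3 (0.633), while Fos had 0.219.

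None of the other 5 members tabled against the list (Hspa1b, Hspb1, Hsph1, Hspa8 and Hspd1) had an immediate early gene at a rho of 0.5, and the list medians with them ran from -0.264 for Hspd1 to 0.117 for Hspa1b. Of all kept genes, between 0.0947% (with Hspa1b) and 1.29% (with Hspb1) reached 0.5 with these 5. Hspd1 and Hspe1 had negative rho with the immediate early score, -0.307 (adjusted p = 0.0257, permutation) and -0.281 (adjusted p = 0.0442, permutation), but neither was stable. The call for Hspd1 was lost under 3 of the 9 alternatives, at numbers above 50 (-0.157), without the libraries of over 25% acinar counts (-0.227) and without the 10 libraries of lowest total (-0.294). That for Hspe1 was lost under 7 of the 9, among them DESeq2 size factors (-0.264) and the deposited values (-0.261) over all 95 libraries. The nearest kept genes to Dnajb1 were Dnaja1 (0.714), Slc25a25 (0.675), a calcium-regulated mitochondrial carrier, Dnaaf2 (0.649), Gadd45b (0.648), a stress-inducible growth arrest gene, and Fosb.

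Hspb1 varied with the share of acinar genes (rho 0.529, r = 0.591, adjusted p = 5e-04 for both, permutation), with 0.56 at numbers up to 50 and 0.509 above. Of the 18 acinar genes, 16 reached a rho of 0.5 with Hspb1, beside 1.29% of kept genes, and the other 2 were Ctrl (0.463) and Amy2a5 (0.446). Hspb1 also had a rho of -0.366 with the hormone share (adjusted p = 0.00467, permutation), which lost its call without the libraries of over 25% acinar counts (-0.272), at numbers up to 50 (-0.375) and above 50 (-0.357). In whole islets fewer cells of a type and less RNA per cell cannot be told apart, and the part of acinar cells in the Hspb1 level was not tested. The relation of Hspb1 to the acinar share passed under all 9 alternatives, among them leaving out the libraries of over 25% acinar counts. However, every library from 25 to 32 and from 59 to 65 had an acinar share below the median of 6.23%. The Hspb1 medians there were 7.77 and 8.65 CPM, beside 14.1 to 22.9 CPM in the other runs of library numbers. No alternative left out both runs, and the part they have in the relation was not tested.

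Smaller relations of the same kind were seen for Hspa1b with the acinar share (rho 0.31, adjusted p = 0.0238, permutation) and for Hspa8 with it (0.324, adjusted p = 0.0191, permutation). Neither passed in the libraries numbered above 50 (0.283 and 0.209). The value for Hspa1b also lost its call without the libraries numbered above 90 (0.291) and without the 10 of lowest total (0.288), and that for Hspa8 at numbers up to 50 (0.35). With Gm15459 counts added to those of Hspa8, the rho with the acinar share was -0.122 (adjusted p = 0.453, permutation). Hspa1b also passed with the hormone share by rho (-0.297, adjusted p = 0.0314, permutation) but not by r (-0.22, adjusted p = 0.183, permutation), and the rho lost its call under 4 of the 9 alternatives. Hspd1 had a negative rho with the fibroblast score (-0.38, adjusted p = 0.0035, permutation), although the call was lost at numbers above 50 (-0.349). Of 10 fibroblast genes 0 reached -0.5 with Hspd1, beside 0.164% of kept genes. Its rho with the macrophage score was -0.289 (adjusted p = 0.0379, permutation), which lost its call under 7 of the 9 alternatives. In the 57 libraries with the lower level, Gm15459 passed with the endothelial score (rho 0.58) and the fibroblast score (0.478). In the smaller part of them numbered above 50, however, the values were -0.0637 and -0.206. Hsf1, the gene for the heat shock factor itself, passed with Hsph1 (rho 0.33, adjusted p = 0.0163, permutation) and with no other member, lost that call within the lower (0.376) and the higher numbers (0.267) and had a rho of -0.00592 with Hspa1b. No member passed with the library total.

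**Figure D4:**
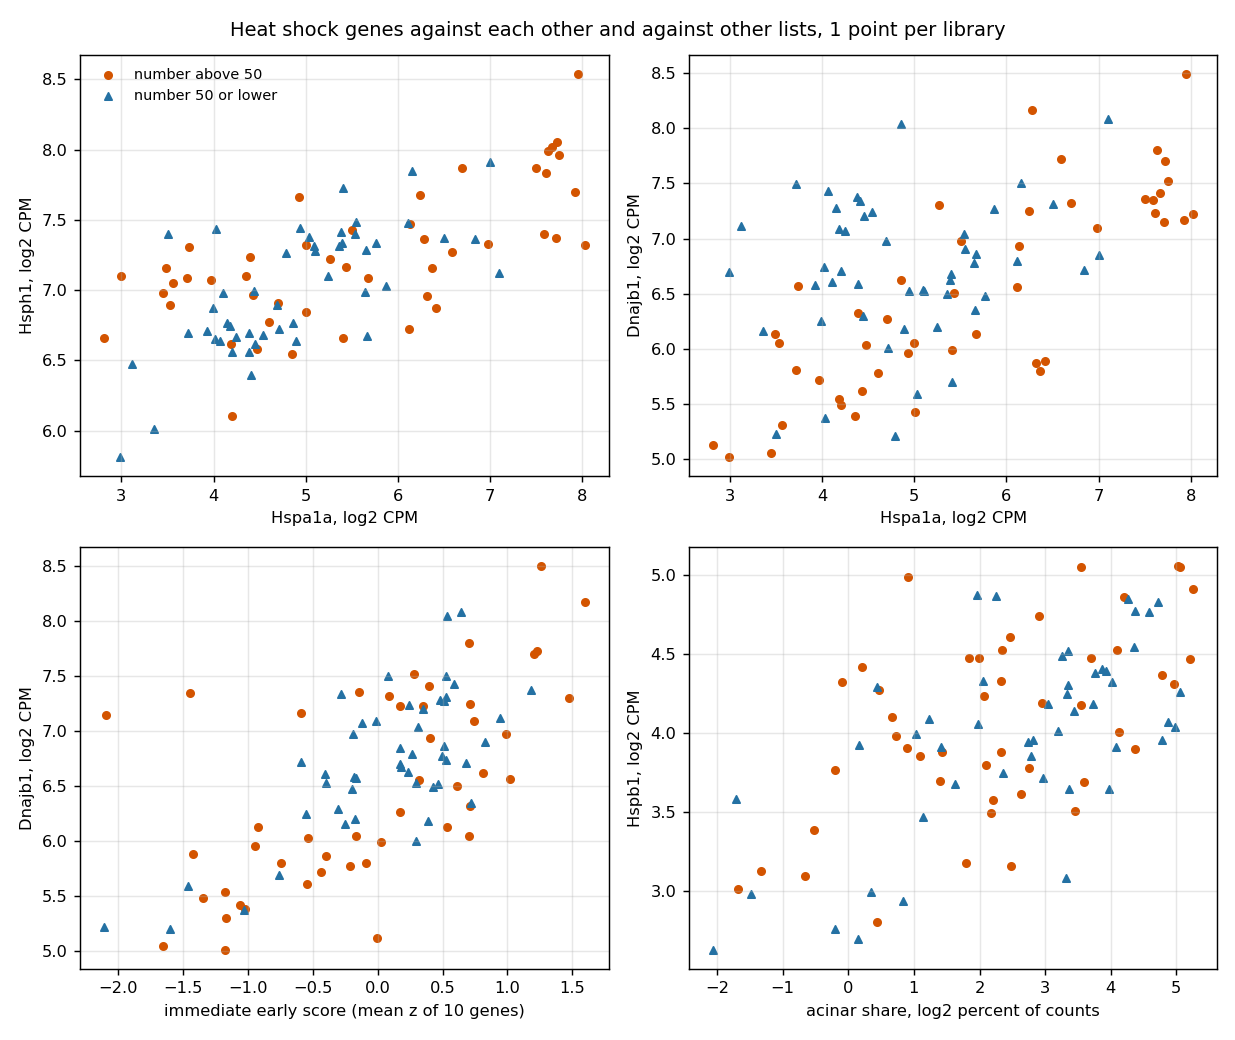
Log2 CPM of Hsph1 and of Dnajb1 against Hspa1a (upper panels), of Dnajb1 against the immediate early score and of Hspb1 against the log2 percentage of counts in 18 acinar genes (lower panels), 1 point per library, with triangles for libraries numbered 50 or lower. Dnajb1 has a rho of 0.595 and 0.657 with the immediate early score at numbers up to 50 and above, and of 0.117 and 0.781 with Hspa1a.

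The wider heat shock pathway was read through 14 genes listed as targets of HSF1, all of which were kept. With Hsph1, 5 of the 14 reached a rho of 0.5, beside 0.208% of kept genes, and the list median was 0.476 where that of all kept genes was 0.00314. They were Chordc1 (0.724) and Ahsa1 (0.633), partners of Hsp90, Dnaja1 (0.621), Stip1 (0.591), which links Hsp70 to Hsp90, and Hsp90ab1 (0.522), the constitutive cytosolic Hsp90. Ahsa2, a relative of Ahsa1 outside the list, had 0.666 and was also among the 5 nearest.

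With Hspd1, 7 of the 14 reached 0.5, beside 1.07% of kept genes: Cacybp (0.729), Chordc1 (0.697), Hspa4l (0.695), Ahsa1 (0.686), Hsp90ab1 (0.627), Stip1 (0.616) and Hsp90aa1 (0.613), the inducible Hsp90. With Hspa8, 4 of the 14 were counted past 0.5, beside 0.126% of kept genes, namely Ahsa1 (0.638), Hsp90ab1 (0.634), Stip1 (0.599) and Hsp90aa1 (0.505), with Cacybp just short of the limit. With Gm15459 added to Hspa8 the count was again 4, but the genes were Dnaja1 (0.629), Stip1 (0.595), Cacybp (0.52) and Hsp90ab1 (0.504), while Ahsa1 had 0.371. These lists were chosen with earlier results of the same libraries known, so their counts describe the data and are not independent evidence.

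With Dnajb1, 4 of the 14 reached 0.5, beside 0.65% of kept genes, and only Dnaja1 (0.714) was shared with the Hsph1 count. The others were Dedd2 (0.565), Bag3 (0.561), a co-chaperone of selective autophagy, and Dnajb4 (0.531), an Hsp40 relative. For Dedd2 and Bag3 the rho with Hsph1 was 0.133 and -0.156. With Hspa1b only Dnaja1 (0.505) reached 0.5, beside 0.0947% of kept genes, and with Hspb1 none of the 14 did, beside 1.29%.

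**Figure D5:**
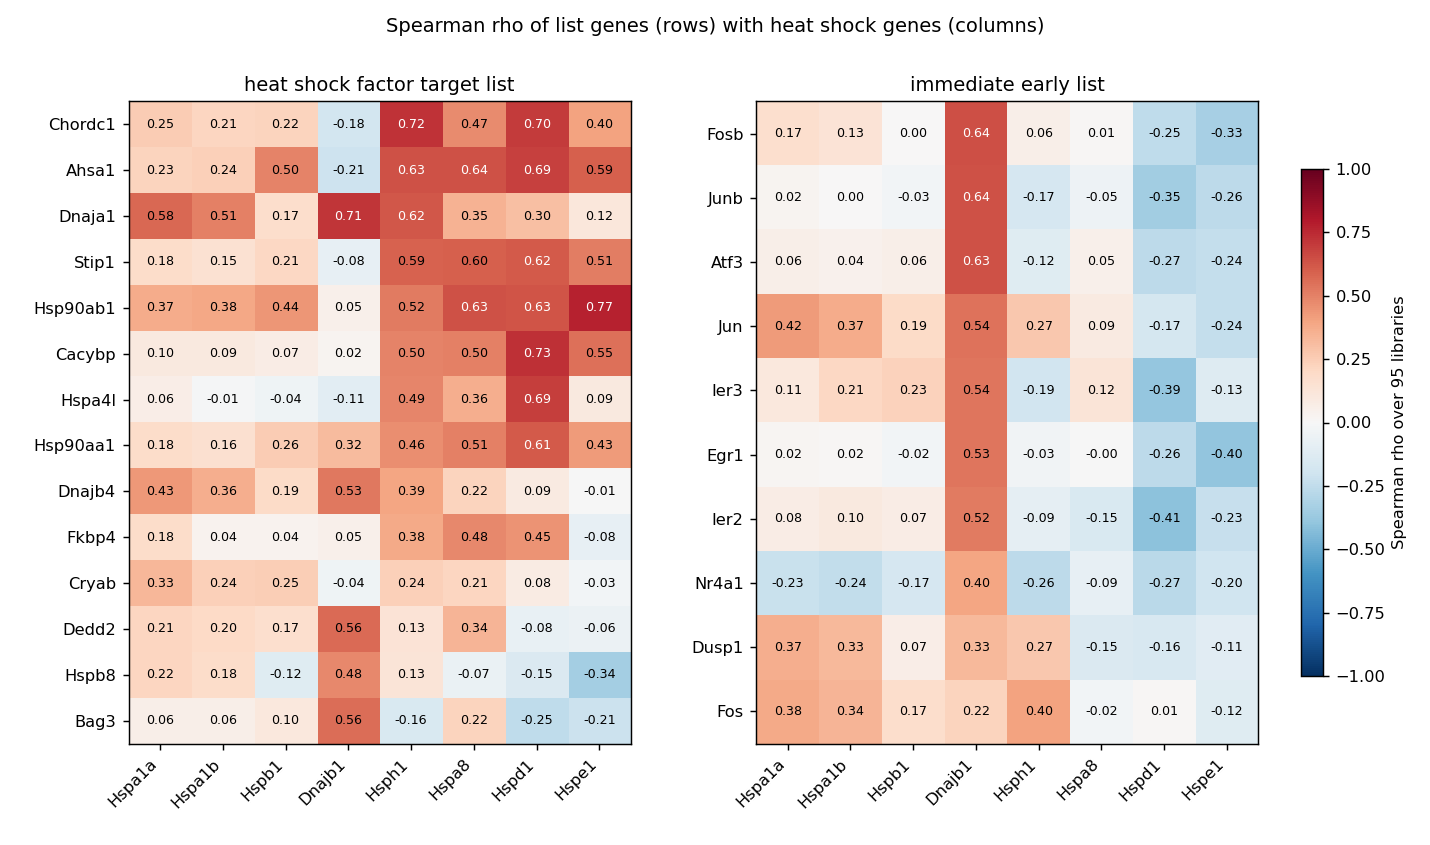
Spearman rho over 95 libraries of 14 genes listed as heat shock factor targets (left) and 10 immediate early genes (right), in rows, with 8 heat shock genes in columns. Chordc1, Ahsa1, Stip1 and Hsp90ab1 reach 0.5 under Hsph1 and Hspd1, whereas Bag3, Dedd2 and 7 of the 10 immediate early genes reach 0.5 under Dnajb1.

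Partners and chaperonins of the cytosol that are not listed as HSF1 targets were read next. Of 17 cytosolic partners, 2 reached 0.5 with Hspd1, beside 1.07% of kept genes. They were St13 (0.68), the Hsp70-interacting protein Hip, and Hspa4 (0.661), an Hsp110 relative. With Hsph1 0 did, beside 0.208% of kept genes, and the values of those 2 were 0.385 and 0.375. With Dnajb1 1 did, Hspa2 (0.506), beside 0.65% of kept genes, and with Hspa1b, Hspb1 and Hspa8 0 did. The 8 genes of the cytosolic chaperonin CCT had BCVs of 8.75% to 12.5%. Of these, Cct4 reached 0.553 with Hspa8 and Cct8 0.713 with Hspd1, and the list median was 0.431 with Hspa8 and 0.353 with Hspd1, where those of all kept genes were -0.00108 and 0.0143.

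Hspd1 was also set beside the rest of mitochondrial protein folding. Of 15 genes of mitochondrial folding and proteolysis, 0 reached a rho of 0.5 with Hspd1, beside 1.07% of kept genes, and the list median was 0.0466. The highest were Yme1l1 (0.493), an inner membrane protease, and Hspa9 (0.391), the mitochondrial Hsp70, whose median of 211 CPM was above that of Hspd1. The kept genes nearest to Hspd1 were P4ha1 (0.733), a collagen prolyl hydroxylase, Cacybp, Cct8, Tmem33 (0.71) and Rpe (0.707), an enzyme of the pentose phosphate pathway. With Hspe1, 0.442% of kept genes reached 0.5, and the nearest were Hsp90ab1 (0.767), Snx5 (0.639), Prr13 (0.629), Vdac3 (0.608), a channel of the outer mitochondrial membrane, and 6330416G13Rik (0.606).

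The nearest genes to Hspa8 were Ahsa1, Hsp90ab1, Stip1, Mrps12 (0.58), a mitochondrial ribosomal protein, and Snx3 (0.569). Those nearest to Hspb1 were Proser2 (0.67), Gpt2 (0.65), a mitochondrial alanine transaminase, Urah (0.623), Ybx3 (0.622) and Eif4ebp1 (0.608), a repressor of translation initiation. For Gm15459 the nearest were Alad, Cald1, Gm13841, Adh1 and Mthfd1l, given without values because its libraries fall into separate sets.

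Of 16 chaperones and stress genes of the endoplasmic reticulum, 0 reached 0.5 with Hspa1b, Hspb1, Hsph1 or Hspa8, and 1 did with Hspd1, the lectin chaperone Canx (0.559), and 1 with Dnajb1, the stress transcription factor Ddit3 (0.507). Over all kept genes the share at 0.5 was 0.0947% for Hspa1b, 1.29% for Hspb1, 0.208% for Hsph1 and 0.126% for Hspa8. It was 1.07% for Hspd1 and 0.65% for Dnajb1, so a count of 0 in a list this short says little. Hspa5, the reticulum's Hsp70 and the highest of the list with a median of 1451 CPM, had a rho of 0.000756 with Hsph1, -0.038 with Hspa1b and 0.481 with Dnajb1. Of the 5 other small heat shock genes kept, 3 had a BCV above 50%, beside 24.3% of kept genes. Among these 3, Hspb8 (median 33.4 CPM, BCV 73.6%) and Cryab (2.46 CPM, 66.3%) had a rho of -0.121 and 0.246 with Hspb1, whose BCV was 38.5%. The list median rho with Hspb1 was 0.246. Of 17 beta cell identity genes, 8 hormone genes, 10 macrophage, 10 lymphocyte, 9 endothelial and 10 fibroblast genes and 4 heat shock factor genes, 0 reached 0.5 with Hspa1b, Hspb1, Hsph1, Hspa8, Hspd1 or Dnajb1, and of 8 duct genes 2 did, both with Hspb1. The shares of kept genes given above apply to these counts too, so 0 in a short list does not set it apart from other genes.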

How the data were processed

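Islet RNA was captured by poly(A), per the labels' protocols. The authors deposited estimated counts without normalization, for 20638 genes in 95 libraries, in which 67.7% of values were whole to within 1e-06. They also deposited variance-stabilised values on a log2-like scale, used only as an alternative. The submitters' processing notes name GRCm38 and DESeq2. The aligner, counting tool and its use of strand are not given in the sources used here.

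All 95 libraries were unassigned. Estimated counts were rounded for dispersion estimates. CPM used TMM factors (0.463 to 1.36) from edgeR 4.0.16 in R 4.3.3, and log2 CPM a prior count of 2. Genes that reached 1 CPM, without TMM, in 10 libraries were kept (15839). BCV is the root of the dispersion that edgeR fitted gene by gene to an intercept-only model. Correlations used NumPy 2.4.6 and SciPy 1.17.1. A gene with an empty stretch over 20% of its log2 range and 6 or more libraries on each side was treated as separate sets. Scores are mean z-scored log2 CPM. For RPKM, TMM-scaled CPM was divided by the length of 1 transcript per gene. Positions were matched to GENCODE M21 and promoters to RefSeq.

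The members and lists were chosen with earlier results of these data known. 1 gene of the heat shock factor target list is not reported here. Named genes are the 9 members, the 5 other kept genes nearest each, and list genes of highest level, widest or narrowest range, or highest rho with Hsph1. Other list genes counted at a rho of 0.5 were named after their values were seen. Tests were checked on simulated data. Alternatives were other size factors (DESeq2 1.42.0), prior count 0.5, no filter, deposited values, totals without acinar and hormone genes, subsets of libraries and, chosen after seeing the data, Hspa8 summed with Gm15459 and Hspa8 within the Gm15459 sets.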

Additional observations from a re-analysis of the deposited data

How the results depend on the processing

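No paired analysis was possible because the labels give no groups. The count of pairs past the threshold stayed within 1.5 times under every alternative run. So did that of members with a BCV over 50% (4 under each of 3 other settings). List genes at a rho of 0.5 were counted again only for heat shock factor targets (with Hsph1, Hspd1, Hspa8 and Dnajb1) and immediate early genes (with Dnajb1). Those counts also stayed within 1.5 times, under DESeq2 size factors and, for Hspa8, summed with Gm15459. Other list counts were not repeated. Under other scalings of all 95 libraries no pair reversed. With totals that left out the acinar and hormone genes the median became 23.35 CPM for Hspb1, 193.7 for Hsph1, 1487 for Hspa8, 193.6 for Hspd1 and 47.59 for Hspe1, since the same counts are divided by smaller totals. The median of Gm15459 was 350 CPM in libraries numbered above 50, which hold most of the libraries with its higher level. The kept genes at a rho of 0.5 with Hspd1 numbered 169, but 82 with DESeq2 size factors and 80 with the deposited values (the cause was not tested). With Hspa8 and Gm15459 summed, chosen after seeing the data, 8 kept genes reached 0.5 with the sum and its rho with the acinar share was -0.122.

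Without the 10 libraries of lowest total, 6 relations to other measures over all libraries passed where 11 had, and rho between Hspa8 and Gm15459 in the lower set was 0.0408. At numbers above 50 only 3 passed, in 47 libraries. Values that changed sign at numbers up to 50 were, for Dnajb1, -0.0334 with Hspa1b, -0.48 with Hspb1, -0.253 with Hsph1 and -0.328 with Hspa8. For Gm15459 they were 0.00225 with Hspa8 in the lower set, and -0.286 with Hspd1 and -0.5 with Hspe1 in the higher. The higher set at these numbers is only the 8 libraries from 25 to 32. At numbers above 50 they were -0.0221 for Hspb1 with Hspd1, and 0.108 and 0.0454 for Dnajb1 with Hspd1 and Hspe1. For Gm15459 in the lower set they were -0.103 with Hspa1b, 0.27 with Hspa8, 0.027 with Hspd1, -0.0637 with the endothelial score and -0.206 with the fibroblast score. At these numbers the lower set is only the libraries up to 58 and from 66 to 75. The cause of these changes was not tested. Of the 15839 genes kept 3854 had a BCV over 50%, against 7709 with no filter. Low counts limit Gm15459 alone, with 3 or fewer estimated counts in 13 libraries. Libraries 4 and 6 among them had totals of 25389201 and 26391500 counts, and the part of depth was not tested.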
